A study of Mus musculus with 9 samples.

Results

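Genomic intervals called for the histone demethylase KDM6A in mouse embryonic stem cells given MTX were examined where both immunoprecipitated libraries had one. A member was any interval that overlapped an interval of the other library by at least 1 bp. Of the 24177 intervals of MTX library 1, 6536 were members, and of the 28976 intervals of MTX library 2, 6555 were. They joined into 5899 shared regions, each a run of overlapping intervals with at least 1 from each library, and 5057 of these held exactly 1 interval per library. The enrichment of an interval is given as log2((KDM6A reads + 1)/(background reads + 1)) minus the median of all intervals of the same list, called the centred log2 ratio. A value of 0 therefore stands for a typical interval of that library, not for the absence of enrichment.

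KDM6A, also called UTX, removes methyl groups from the histone mark that Polycomb repressive complex 2 deposits at silent developmental genes. It works within the KMT2C and KMT2D complexes, which methylate a different histone residue at enhancers, and it is best known in stem cells for the switching on of lineage genes. Its gene, Kdm6a, is X-linked. Uty is the related gene on the Y chromosome, and Kdm6b encodes a second demethylase of the same mark. MTX is the usual abbreviation of methotrexate, an antifolate that blocks the regeneration of reduced folate by dihydrofolate reductase and so limits nucleotide synthesis.

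The series used chromatin immunoprecipitation with sequencing on cells of the Sv129 mouse line. The libraries described here came from cells kept for 24 h in 0.12 µM MTX, for which the labels give the genotype as folate deficiency, the tissue as embryo and the treatment tag as neurodevelopment. They comprise 2 KDM6A immunoprecipitations and 1 immunoprecipitation with nonspecific IgG. The series also had 2 inputs of MTX cells, 2 KDM6A libraries of cells labelled WT and 2 inputs of those cells. No interval list of an input was used here, and no library of WT cells enters a comparison. A single line was used, and the labels do not say whether the 2 MTX libraries came from separate cultures, so the spread between them may be technical.

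The interval lists held 3251202 and 4192029 KDM6A reads and 2593879 and 3347897 background reads, over 90.2 and 114 Mb. Reads outside intervals are not counted in these lists, so how deeply the libraries were sequenced is not known here. The labels name no molecular identifiers, so reads may include copies of 1 molecule. The background library is not named in the lists and is called background below. The IgG list and the list of MTX library 1 had identical background counts in 52 of the 52 intervals that they placed at the same position, against 2 of 52 for MTX library 2 and IgG. The IgG list is thus not independent of MTX library 1 in its background. Its intervals are used below only to mark regions that were also called without a specific antibody.

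Promoter sequences are given as examples of what the shared intervals covered, not as the ends of the range of all shared regions. RefSeq promoter windows (GRCm38.p6, 250 bases before and 50 after a gene's start) lay wholly within intervals of both libraries in 149 of 32851 cases (0.454%), at 142 genes. The 250 bases before the start are printed 5′ to 3′ on the gene's strand, with each CpG dinucleotide in capitals. Shown are the 2 genes with the highest and the 2 with the lowest centred log2 ratios in both libraries among those clear of IgG intervals, then the pluripotency gene Nanog. They lie at chr6:57257899-57258148 on the plus strand (Vmn1r15), chr7:85012021-85012270 on the minus strand (Vmn2r66), chr11:109611390-109611639 on the minus strand (Wipi1), chr11:4704345-4704594 on the minus strand (Uqcr10) and chr6:122707239-122707488 on the plus strand (Nanog).
Vmn1r15: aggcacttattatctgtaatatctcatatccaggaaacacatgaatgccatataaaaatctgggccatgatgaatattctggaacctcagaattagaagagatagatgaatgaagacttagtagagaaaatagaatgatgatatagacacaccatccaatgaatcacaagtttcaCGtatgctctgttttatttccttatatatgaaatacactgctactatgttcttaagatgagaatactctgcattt
Vmn2r66: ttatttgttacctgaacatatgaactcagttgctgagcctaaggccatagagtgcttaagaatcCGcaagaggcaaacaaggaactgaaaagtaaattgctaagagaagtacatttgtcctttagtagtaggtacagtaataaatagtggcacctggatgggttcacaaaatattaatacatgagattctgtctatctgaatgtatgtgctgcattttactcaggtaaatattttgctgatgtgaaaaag
Wipi1: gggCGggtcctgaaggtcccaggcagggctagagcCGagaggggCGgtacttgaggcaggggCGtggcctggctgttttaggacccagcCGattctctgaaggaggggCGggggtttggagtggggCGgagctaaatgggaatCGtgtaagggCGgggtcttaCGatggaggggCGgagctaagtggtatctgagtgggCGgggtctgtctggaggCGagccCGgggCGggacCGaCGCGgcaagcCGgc
Uqcr10: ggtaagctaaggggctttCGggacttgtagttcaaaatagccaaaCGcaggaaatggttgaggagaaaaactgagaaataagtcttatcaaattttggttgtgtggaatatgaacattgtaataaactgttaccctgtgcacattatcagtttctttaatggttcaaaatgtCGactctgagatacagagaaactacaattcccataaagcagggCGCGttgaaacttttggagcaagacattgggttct
Nanog: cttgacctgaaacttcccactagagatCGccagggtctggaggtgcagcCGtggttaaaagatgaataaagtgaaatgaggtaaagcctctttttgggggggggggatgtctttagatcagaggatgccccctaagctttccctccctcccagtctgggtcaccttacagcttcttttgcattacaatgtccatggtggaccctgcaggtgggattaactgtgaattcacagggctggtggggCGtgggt

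Vmn1r15 and Vmn2r66 encode vomeronasal pheromone receptors, and each of their windows held 1 CpG, with 32.8% and 36.0% G and C. The region at Vmn1r15 had 112 KDM6A against 61 background reads in library 1 and 161 against 96 in library 2, for centred log2 ratios of 0.46 and 0.32. The region at Vmn2r66 had 209 against 102 and 189 against 136 reads, for ratios of 0.62 and 0.06. Both receptors lay above the list median in both libraries, Vmn2r66 only barely so in library 2. Wipi1, which encodes an autophagy protein that binds phosphoinositides, had 19 CpGs and 67.2% G and C. Its region held 121 against 164 reads in library 1 and 262 against 273 in library 2, for ratios of -0.85 and -0.47. At Uqcr10, a subunit gene of mitochondrial respiratory complex III, the window had 5 CpGs and 38.8% G and C, and the region held 307 against 300 and 229 against 264 reads. Its ratios were -0.38 and -0.62, so that both genes were below the median in both libraries, and at both the deposited reads in the background equalled or exceeded those of KDM6A in at least 1 library. Nanog, a core transcription factor of pluripotency, had 3 CpGs, 105 against 84 reads in library 1 and 98 against 107 in library 2. Its ratios of -0.09 and -0.54 put it near the list median in library 1 and below it in library 2, and its region also met an IgG interval.

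Read against all promoters, those within both lists were poorer in CpG, with a median of 4 against 6 per 250 bases and a median G and C content of 47.2% against 52.4%. The libraries stood apart in this. Promoters covered by library 1 had a median G and C content of 52.8% in shared and 57.6% in unshared intervals, not below that of all promoters, and those covered by library 2 had 45.2% and 44.8%. Of the 142 genes, 96 had at least 50 KDM6A reads in each library, a symbol other than a prediction name and a place off chromosome 18. Of these 96, 6 were above the list median in both libraries, with a median of 1 CpG, and 73 were below it in both, with a median of 8 CpGs. The 6 were Efcab3 and the chemosensory receptor genes Olfr799, Olfr788, Olfr382, Vmn1r15 and Vmn2r66. The CpG count of so few promoters is therefore mostly that of receptor genes. All of the 6 but Vmn1r15 and Vmn2r66 met IgG intervals, as did 62 of the 96. Over the promoters that a library covered with shared intervals, the centred log2 ratio and the G and C content had a Spearman rho of -0.23 in library 1 (331 promoters) and -0.41 in library 2 (282 promoters). Among intervals that the other library lacked, rho was -0.18 (1423 promoters) and -0.45 (568 promoters), so the relation was found in unshared intervals as well. These are correlations across promoters within a library, which share depth and base composition. Of the motifs searched on both strands, TATAAA was in 11.4% of the promoters within both lists and 12.4% of all, CCAAT in 36.2% and 33.8%, GGGCGG in 32.2% and 32.7%, and CACGTG in 4.70% and 6.02%.

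Overlap between the libraries was partial, and it was concentrated among deep, wide intervals with high background rather than among those with a high KDM6A ratio. The members made up 27.0% of list 1 (exact 95% interval 26.5 to 27.6%) and 22.6% of list 2 (22.1 to 23.1%). They carried 36.8% and 33.3% of the KDM6A reads of their lists. All of the 100 intervals with the most KDM6A reads were shared, in library 1 and in library 2. Of the 100 intervals with the highest centred log2 ratio, 13 were shared in library 1 and 5 in library 2. With each list divided into 4 equal groups by background reads per kb, the share of members went from 16.1% through 22.4% and 29.5% to 40.1% in library 1 and from 10.9% through 16.3% and 22.8% to 40.5% in library 2. By centred log2 ratio it went the other way, from 36.6% in the lowest group to 17.1% in the highest in library 1 and from 35.6% to 12.0% in library 2. By KDM6A reads per kb the range was smaller, 20.2 to 32.0% and 16.1 to 28.4%. The ratio and the background counts are parts of one quantity, so these orders are not independent of each other.

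**Figure D1:**
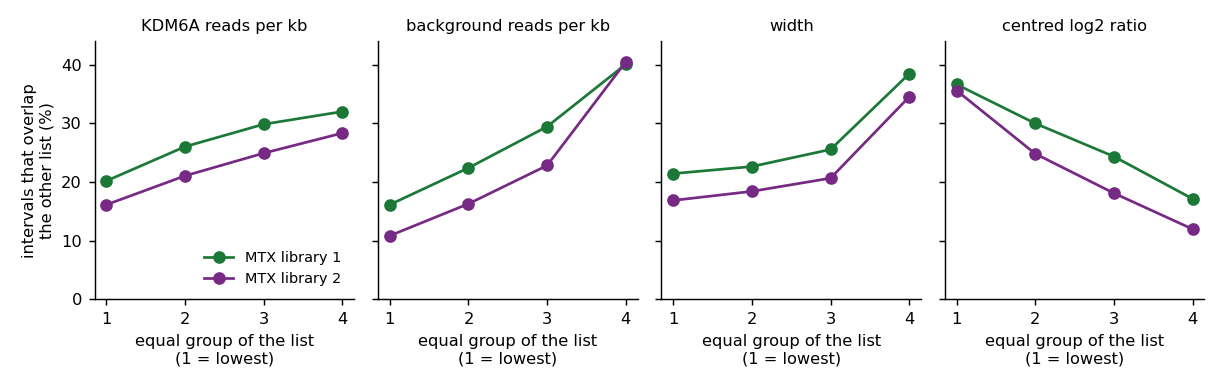
Share of intervals (%) that overlap the other MTX list by at least 1 bp, with each list divided into 4 equal groups (1 the lowest) by KDM6A reads per kb, background reads per kb, width or centred log2 ratio; points are libraries 1 (green) and 2 (purple). In both libraries the share is highest, 40.1% and 40.5%, where background is highest, and falls to 17.1% and 12.0% where the ratio is highest.

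Members had lower ratios than the remaining intervals of the same list. The median centred log2 ratio was -0.10 for shared against 0.04 for unshared intervals in library 1, and -0.17 against 0.05 in library 2. In library 1, 38.3% of members lay above the list median, against 54.3% of the other intervals, and in library 2 the shares were 33.1% and 54.8%. KDM6A reads per kb differed little, with medians of 34.7 and 33.5 in library 1 and 35.8 and 34.3 in library 2. Background reads per kb differed more, 27.8 against 24.5 and 29.8 against 25.0. Deposited folds below 1 were found in 10.2% of members and 5.52% of the other intervals in library 1, and in 10.8% and 3.73% in library 2. The deposited adjusted p was under 0.05 in 72.5% of members against 81.0%, and in 74.0% against 86.5%. With the depth constants that the deposited folds contain in place of the list median, typical intervals sat 0.51 and 0.58 log2 units above 0, and the median of the shared regions, -0.13 over both libraries when centred, became 0.42. Shared regions whose deposited adjusted p was under 0.05 in both lists, a choice that itself favours high ratios, had a median of 0.05 in library 1 and -0.01 in library 2.

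Members were also wider. Their median width was 3800 bp against 3400 bp in library 1 and 4000 against 3600 bp in library 2, with a range of 200 to 79200 bp and 200 to 81800 bp. Of the intervals of at least 10 kb, 159 of 186 were shared in library 1 and 305 of 367 in library 2. A wider interval has more bases with which to meet another, and that part of the difference was not tested. IgG intervals overlapped 46.3% of members in library 1 (exact 95% interval 45.0 to 47.5%) against 17.0% of unshared intervals. In library 2 the shares were 46.1% (44.8 to 47.3%) and 16.5%. In all, 2889 of the shared regions (49.0%) met an IgG interval, with median centred ratios of -0.16 and -0.21, against -0.03 and -0.09 for the 3010 that met none.

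Where both libraries had an interval, the intervals often coincided only in part. The median overlap was 2400 bp, or 64.7% of the bases of library 1 and 57.7% of those of library 2. Each library was overlapped by at least 50% in 2905 regions (49.2%), and the overlap was under 20% of either in 761 (12.9%). Interval ends, which lie on a 200 bp grid, were identical at both sides in 74 regions and at exactly 1 side in 562. Midpoints were a median of 1300 bp apart and within 500 bp of each other in 1454 regions (24.6%). The widths agreed within 2-fold in 80.8%. Over all bases, the lists had 17.5 Mb in common, 9.42% of the bases in either.

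The ratio itself agreed weakly. Over the 5899 regions, the centred log2 ratios of the libraries had a Pearson r of 0.37 and a Spearman rho of 0.38. The values were 0.78 and 0.59 for log2 background reads per kb, 0.75 and 0.23 for log2 KDM6A reads per kb and 0.49 and 0.31 for log2 width. These regions share libraries, depth and mappability, and the r values are descriptions. Both libraries lay below their list median in 2732 regions (46.3%), both lay above in 1116 (18.9%), and they were split in 2051 (34.8%). The deposited adjusted p was under 0.05 in both libraries in 3625 regions (61.5%), in 1 library in 1688 and in neither in 586. The median absolute difference between libraries was 0.27 log2 units, and it exceeded 1 in 142 regions (2.41%). At a threshold of 1 log2 unit above the median, 45 regions passed in library 1, 43 in library 2 and 2 in both. The regions that passed in library 1 had a median of 0.10 in library 2, and those that passed in library 2 had a median of 0.11 in library 1. Over all shared regions the medians were -0.16 in library 2 and -0.09 in library 1. Of the 45 regions that passed in library 1, 28 were above 0 in library 2. Of the 43 that passed in library 2, 24 were above 0 in library 1. Such regions thus lay somewhat above the typical shared region in the other library, but few passed the threshold there. Picking on 1 library's value favours a lower value in the other, so the drop is in part built in.

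**Figure D2:**
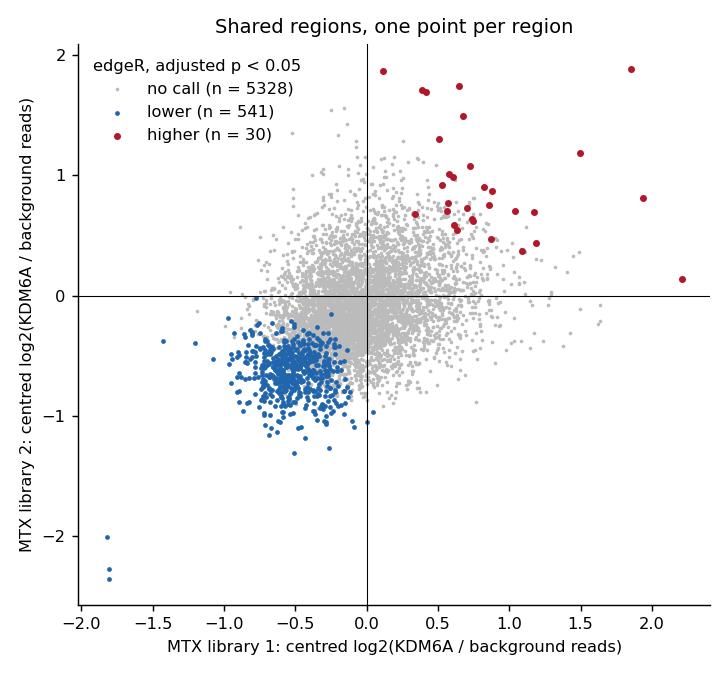
Centred log2(KDM6A / background reads) of library 2 (vertical) against library 1 (horizontal), 1 point per shared region; red, 30 regions called higher than the list median; blue, 541 called lower; grey, 5328 not called (edgeR, adjusted p under 0.05). The cloud sits below 0 on both axes, the 3 isolated blue points at the lower left are 2 mitochondrial regions and 1 on an unplaced contig, and several red points are high in 1 library only.

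Departures from the list median were then sought with edgeR's quasi-likelihood test of KDM6A against background reads, with the library as a block. The test fits a single ratio common to both libraries, so a call does not require a departure in each. Of the 5899 regions, 30 were called higher (0.509%) and 541 lower (9.17%) at a Benjamini-Hochberg adjusted p under 0.05. At an unadjusted p under 0.05 the counts were 205 and 1174. The test has 1 residual degree of freedom per region and borrows the spread from all regions. The choice of reference decides the direction: with the deposited depth constants in place of the list medians, 2798 regions were called higher and 14 lower. Without the library block, no region was called in either direction (10 and 85 at an unadjusted p under 0.05), and DESeq2 called 0 higher (19 at an unadjusted p) and 166 lower among the 867 regions to which it gave an adjusted p. Among the 30 regions that edgeR called higher, only the one nearest to Dsel was given a DESeq2 adjusted p (0.103). The DESeq2 count of 0 therefore says little about the others. With intervals that passed the deposited adjusted p in both lists, the counts were 10 and 15 of 3626.

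The 30 higher regions were scattered and had low background. They lay on 13 chromosomes, none on chromosome 11, with 22 outside genes (73.3%, against 42.2% of all shared regions) and 8 inside. Their fitted log2 ratio over the list median ran from 0.54 to 1.93 with a median of 0.83, and all 30 were above the median in both libraries. KDM6A reads per kb were 35.5 and 36.3 in the median, close to the 34.3 and 35.4 of uncalled regions. Background reads per kb were 15.2 and 15.3, against 26.7 and 28.6. The higher regions differed from the uncalled ones in their background reads more than in their KDM6A reads. A call rests on the ratio of these counts, so low background in higher regions is in part built into it. IgG intervals met 7 of the 30 (23.3%, against 49.0% of all shared regions). The 22 regions outside genes were 8.0 to 1654.7 kb from the nearest protein-coding gene, with a median of 316.25 kb.

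The highest call, at chr3:60202201-60204400, had 90 KDM6A against 18 background reads in library 1 and 58 against 11 in library 2. Its centred ratios were 1.85 and 1.88, and its fitted log2 ratio was 1.93 ± 0.37 (SE, n = 2, edgeR adjusted p = 1.96e-05). It lay 114.6 kb from Sucnr1, the succinate receptor gene. The next, at chr9:17678201-17681400, had 85 against 22 and 105 against 34 reads, and ratios of 1.49 and 1.18 (log2 1.36 ± 0.31, edgeR adjusted p = 0.000714). Its nearest gene was Chordc1, which encodes a cochaperone, at 610.9 kb. These were the 2 regions past 1 log2 unit in both libraries. At the other extreme of agreement, the region nearest to Man1a had ratios of 2.21 and 0.14, from 85 against 13 and 125 against 85 reads, and one nearest to Cntnap5a had 0.11 and 1.87. Both of the latter were called, with 1 library close to the median. The libraries did not cover the same bases there. Near Man1a the spans were chr10:54788601-54790600 in library 1 and chr10:54785801-54790200 in library 2. Near Cntnap5a they were chr1:116779001-116782600 and chr1:116781601-116784000. In both regions the narrower span had the higher ratio, and how far extent accounts for the difference was not tested.

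**Figure D3:**
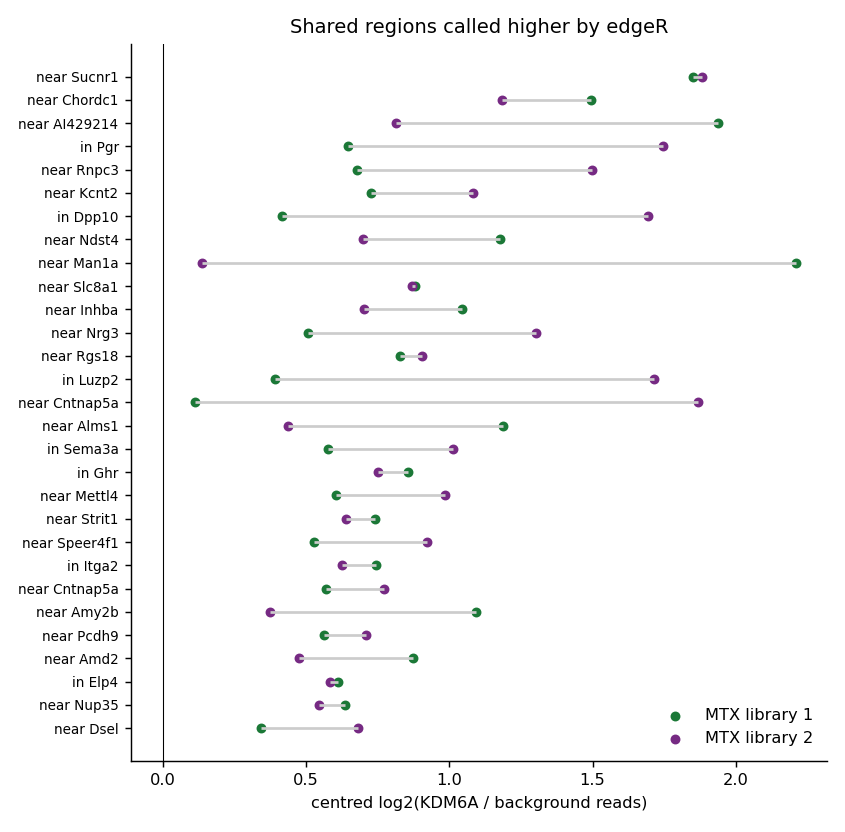
Centred log2(KDM6A / background reads) (horizontal) of 29 of the 30 shared regions called higher by edgeR, in library 1 (green) and library 2 (purple), each row named by the gene that holds the region or the nearest one. All points lie above 0, the list median; the region near Sucnr1 has 1.85 and 1.88, while those near Man1a and in Pgr are far apart.

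The 8 higher regions inside genes included those in Pgr, Dpp10, Luzp2, Sema3a, Ghr, Itga2 and Elp4. Pgr, the progesterone receptor gene, had 107 against 51 reads in library 1 and 75 against 16 in library 2, so that its ratios of 0.64 and 1.75 differed by more than 1 log2 unit (log2 1.11 ± 0.31, edgeR adjusted p = 0.00776). Ghr, the growth hormone receptor gene, had 112 against 46 and 156 against 69 reads, with ratios of 0.86 and 0.75 (log2 0.81 ± 0.25, edgeR adjusted p = 0.0189). Its libraries differed by less than their distance from the median. Sema3a, which encodes a secreted axon guidance cue, had 104 against 52 and 174 against 64 reads, and ratios of 0.58 and 1.01. Itga2, the collagen-binding integrin subunit, had 108 against 48 and 186 against 90 reads, and ratios of 0.74 and 0.62. Their edgeR adjusted p-values were 0.0157 and 0.0345. In Dpp10, a potassium channel auxiliary subunit gene, the ratios of 0.42 and 1.69 were far apart and the region met IgG, as did that in Elp4, an Elongator subunit gene, at 0.61 and 0.58. Luzp2 had 0.39 and 1.71. In Pgr, Dpp10 and Luzp2 the library with the higher ratio also had the narrower span. In Pgr this was chr9:8913801-8915200 in library 2, against chr9:8913001-8916400 in library 1. In Sema3a and Elp4 the higher ratio was that of the wider span.

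Other genes among the 10 with the highest lower value around a midpoint did not pass, although some of them ranked above Itga2 and Sema3a. Abcc5, an ABC transporter gene, had 59 against 25 and 108 against 50 reads, for 0.80 and 0.68 (edgeR adjusted p = 0.104). Kcnc2, a voltage-gated potassium channel gene, had 0.65 and 0.64 (edgeR adjusted p = 0.0707), Arfgef1 had 0.67 and 0.56, Rspo3, which amplifies Wnt signalling, had 0.56 and 0.66, and Lrp1b had 0.55 and 0.65. In each of these genes the 2 libraries were closer to each other than to the median.

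The 541 lower regions were wide, rich in background reads and often shared with IgG. Their median span was 8800 bp against 6000 bp for uncalled regions, and 539 were on the same side of the median in both libraries. Background reads per kb were 38.1 and 42.3 in the median. KDM6A reads per kb, at 35.8 and 36.8, were close to those of the higher regions. Here too the call rests on the ratio of these counts, so high background is in part built into it. IgG intervals met 418 (77.3%), and 307 (56.7%) were on chromosome 11. Regions clear of IgG, refitted alone, gave 10 higher and 72 lower of 3010, and regions off chromosome 11 gave 26 and 227 of 3913. A lower call is not the absence of KDM6A reads: 218 of the 541 were above 0 when scaled by the deposited depth constants.

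The lowest calls were mitochondrial. The region from 1 to 6600 of the mitochondrial genome had 4718 KDM6A against 12448 background reads in library 1 and 899 against 3473 in library 2, for ratios of -1.81 and -2.36 (log2 -2.07 ± 0.08, edgeR adjusted p = 1.01e-148). The second, from 10801 to 16200, had 3941 against 10389 and 798 against 2899 reads, for ratios of -1.81 and -2.27. Both were lower under the deposited depth constants as well, at -1.52 and -1.48, and both met IgG intervals. Mitochondrial DNA is not packed with histones. An interval of 200 bp on an unplaced contig, with 31 against 84 and 41 against 126 reads, was next.

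Chromosome 11 held 1986 of the shared regions (33.7%). Its intervals were shared in 53.5% of cases in library 1 and 41.0% in library 2, against 16.4 to 27.3% and 12.7 to 25.3% on the other autosomes. Its regions had median centred ratios of -0.20 and -0.31, against -0.04 and -0.08 on the other autosomes. KDM6A reads per kb were 35.0 and 36.7 there and 34.1 and 34.9 elsewhere, whereas background reads per kb were 30.1 and 34.7 against 26.0 and 27.2. Lower calls were made in 307 of its regions (15.5%) and in 221 of 3889 on the other autosomes (5.68%), higher calls in 0 and 30. On chromosome 11, 15 regions were higher at an unadjusted p, 5 by limma and 0 by DESeq2. DESeq2 gave an adjusted p to only 867 of all 5899 shared regions, so its count of 0 says little. Chromosome 17 also had many, 46 lower calls in 212 regions (21.7%). The X chromosome had 2 shared regions and the Y chromosome 4.

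**Figure D4:**
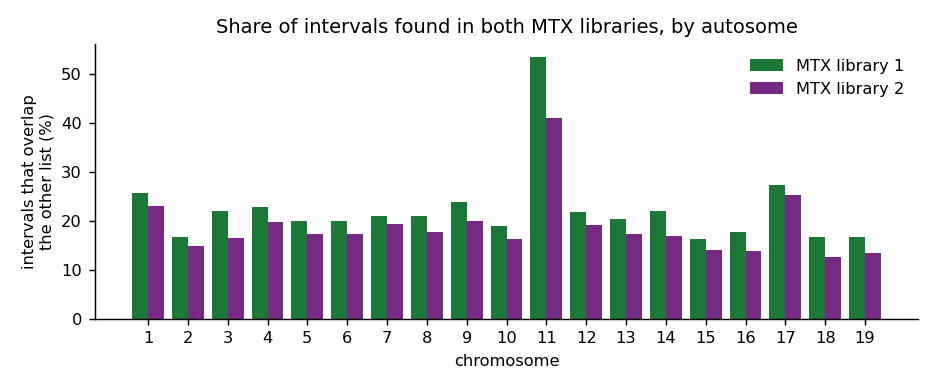
Share of intervals (%) of library 1 (green bars) and library 2 (purple bars) that overlap the other MTX list, by autosome. Chromosome 11 stands at 53.5% and 41.0%, and the other autosomes are all between 12.7 and 27.3%.

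The deepest shared regions were few and lay below the list median. One at chr2:98662201-98667400 held 109654 KDM6A and 98289 background reads in library 1 and 158339 and 132164 in library 2, which was 3.37% and 3.78% of all KDM6A reads in the lists. Its ratios were -0.25 and -0.15, and the nearest gene, Lrrc4c, was 1030.5 kb away. Its edgeR adjusted p was 0.00132. The 5 deepest regions held 4.52% and 5.00% of the listed KDM6A reads, and all 5 met IgG intervals and were called lower by edgeR. The third of them, at chr11:3183601-3200400, met Sfi1, a centrosomal gene, at -0.56 and -0.58. The widest region spanned 105800 bp at chr17:30481801-30587600, in Btbd9, with 4418 against 5130 and 4431 against 5775 reads and ratios of -0.63 and -0.80. The next 4 lay 53.3 kb from Prl2c2 (81800 bp), in Dnah8, an axonemal dynein gene (76600 bp), at Chil4, a chitinase-like gene, and across the start of Pdia5, a protein disulfide isomerase gene. Of these 5, the edgeR adjusted p was 0.110 at Chil4, with ratios of -0.13 and -0.27, and the others were called lower. All 5 met IgG intervals.

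By midpoint, 201 shared regions (3.41%) lay within 1 kb of a gene's start or end coordinate, 3208 (54.4%) inside genes and 2490 (42.2%) outside them. Median centred ratios were -0.20 and -0.28 at gene ends, -0.13 and -0.20 inside genes and -0.04 and -0.08 outside. Higher calls numbered 0, 8 and 22 in these classes and lower calls 29, 310 and 202. The libraries differed in how sharing related to gene ends: in library 1, 3.50% of members and 6.20% of unshared intervals were at gene ends, and in library 2, 3.08% and 2.28%. That difference between libraries was not tested.

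Midpoints of shared regions fell inside 1725 protein-coding genes, whose median length of 76.8 kb exceeded the 17.2 kb of all genes. A longer gene has more bases in which a midpoint can fall, so this difference and the counts per gene are in part built in. Of the 1725 genes, 118 held 5 or more. Dpp10 held the most, 24 regions over 1513.678 kb, with median ratios of 0.20 and 0.13, 1 higher call and 15 regions that met IgG. On chromosome 11, Tanc2, a synaptic scaffold gene, had 23 regions in 339.845 kb, Ranbp17, an exportin-family gene, had 21 and Smg6, a gene of nonsense-mediated decay, had 18. Their median ratios were -0.22 and -0.26, -0.28 and -0.47, and -0.35 and -0.47. Cobl, an actin nucleator gene, had 15 regions of which 9 were called lower. Pde4d on chromosome 13, a cyclic AMP phosphodiesterase gene, had 19 regions, with median ratios of -0.04 and -0.03 and no call. Per 100 kb of gene, Dpp10 had 1.59 regions and Tanc2 6.77.

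At gene ends, taken as 1 kb to each side of a gene's start or end coordinate, both libraries had an interval of the same shared region at 469 of 21887 protein-coding genes (2.14%). Of these genes, 268 met IgG there, 41 were above the list median in both libraries, and 106 were called lower by edgeR. No region at a gene end by midpoint was called higher (4 at an unadjusted p, 1 by limma and 0 by DESeq2). The DESeq2 count is limited by the 867 of 5899 shared regions to which it gave an adjusted p. Of the 505 pairs of a gene and a region, 162 were at the start alone, 227 at the 3′ end alone, 44 at both, 71 at genes with no strand given, and 1 had the libraries at different ends. The intervals were thus no more often at starts than at 3′ ends.

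Shared gene-end intervals were counted over lists of developmental, chromatin and other genes. None were found at the 12 genes of the KMT2C and KMT2D complexes with the KDM6 demethylases, 39 Hox genes, 44 neural tube closure genes, 30 neural progenitor genes, 31 mesoderm and endoderm genes, 21 germline genes or 27 imprinted genes. There were also none at 34 p53 and DNA damage genes, 20 fibroblast markers, 69 protocadherins and 74 core histone genes. Against the share of 2.14% among all genes, a count of 0 in lists of these sizes is not a result about their members.

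Of 30 pluripotency genes, 2 had a shared gene-end interval (6.67%, against 2.14% of all protein-coding genes), Nanog and Zfp281. Zfp281, a zinc finger factor of the pluripotency network, had 221 against 227 reads in library 1 and 234 against 184 in library 2, with ratios of -0.45 and -0.07. Of 12 genes of Polycomb repressive complex 2, Suz12, a core subunit gene, was the 1 found (8.33%). It had 268 against 260 and 221 against 162 reads and ratios of -0.37 and 0.03 at its 3′ end. A second shared region, over the Suz12 promoter, had 522 against 444 and 159 against 173 reads, with ratios of -0.18 and -0.54, and was not called either (edgeR adjusted p = 0.147). The edgeR adjusted p-values were 0.350 at Zfp281, 0.548 at the 3′ end of Suz12 and 0.433 at Nanog. Of 42 Wnt pathway genes, 2 were found (4.76%). Gsk3b, the kinase of the destruction complex, had -0.34 and -0.17, and Tcf7, a nuclear effector, had -0.05 and -0.78. Of 43 folate, methionine and nucleotide genes, 1 was found (2.33%). This was Shmt1, the cytosolic serine hydroxymethyltransferase that feeds the folate cycle, with 91 against 68 and 164 against 184 reads. Its ratios of 0.01 and -0.58 differed between libraries, and its edgeR adjusted p was 0.317. All of these regions but that of Gsk3b met IgG. With 1 or 2 genes found per list, these shares are not results about the lists.

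Shared gene-end intervals were also counted for multigene families, beside 2.14% of all genes. Among 1110 olfactory receptor genes, 49 had one (4.41%), 24 of them with IgG overlap, with median ratios of 0.01 and -0.00. Of these 49, 18 were above the median in both libraries and 2 were called lower. At the start alone or at both ends, 34 were met, against 191 of all 469 genes, some of which have no strand given. Olfr954, for example, is 0.945 kb long, so a 1 kb window at its start also takes in its 3′ end. Vomeronasal receptors had 13 of 353 (3.68%), with medians of -0.08 and -0.07, 1 of them called lower and 10 with IgG overlap. Zfp zinc finger genes had 23 of 397 (5.79%), with medians of -0.40 and -0.44, 9 of them called lower and 16 with IgG overlap. Over all 469 genes the medians were -0.22 and -0.31, with 106 called lower and 268 with IgG overlap. Reads of such multigene families can align to more than 1 copy, and 1 interval can reach neighbouring genes, so their positions are uncertain. Of 99 cytosolic ribosomal protein genes, Rps27a and Rpl23a were found (2.02%), both on chromosome 11, both with IgG and both called lower (edgeR adjusted p = 0.0197 and 0.00844).

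Of the 10 gene-end genes with the highest lower value and no IgG overlap, 8 were chemosensory receptors: Olfr954, Vmn2r84, Olfr1115, Olfr798, Vmn1r15, Olfr988, Olfr826 and Olfr566, with Stim2, an endoplasmic reticulum calcium sensor gene, and Omd, a bone matrix proteoglycan gene, beside them. None was called. Olfr954, the first, had 118 against 58 reads in library 1 and 81 against 43 in library 2, for ratios of 0.60 and 0.48 (edgeR adjusted p = 0.205). Vmn2r84 had 132 against 72 and 94 against 48 reads, for 0.46 and 0.54. Stim2 had 68 against 31 and 92 against 54 reads, for 0.70 and 0.34. These 10 were chosen by the lower of both values, so their place above the median in both libraries follows from that choice. Their adjusted p-values ran from 0.153 to 0.360 by edgeR.

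The 5 lowest gene-end genes clear of IgG were all on chromosome 11 and all called lower. Pes1, a ribosome biogenesis gene, had 156 against 183 reads in library 1 and 112 against 159 in library 2, for ratios of -0.64 and -0.92 (log2 -0.77 ± 0.19, edgeR adjusted p = 0.00200). Top3a, a topoisomerase gene, had 158 against 176 and 267 against 331 reads, for -0.56 and -0.72. Cpd, the carboxypeptidase D gene, had 176 against 239 and 166 against 183 reads, for -0.85 and -0.55. Aldh3a1, an aldehyde dehydrogenase gene, had -0.54 and -0.98, and Olfr1373 had -0.52 and -0.59. All 5 had more background than KDM6A reads in both libraries. They were chosen for the lowest ratios, so this and the lower calls follow largely from the choice. The deposited adjusted p at Pes1, Top3a, Aldh3a1 and Olfr1373 was 1 in both lists.

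**Figure D5:**
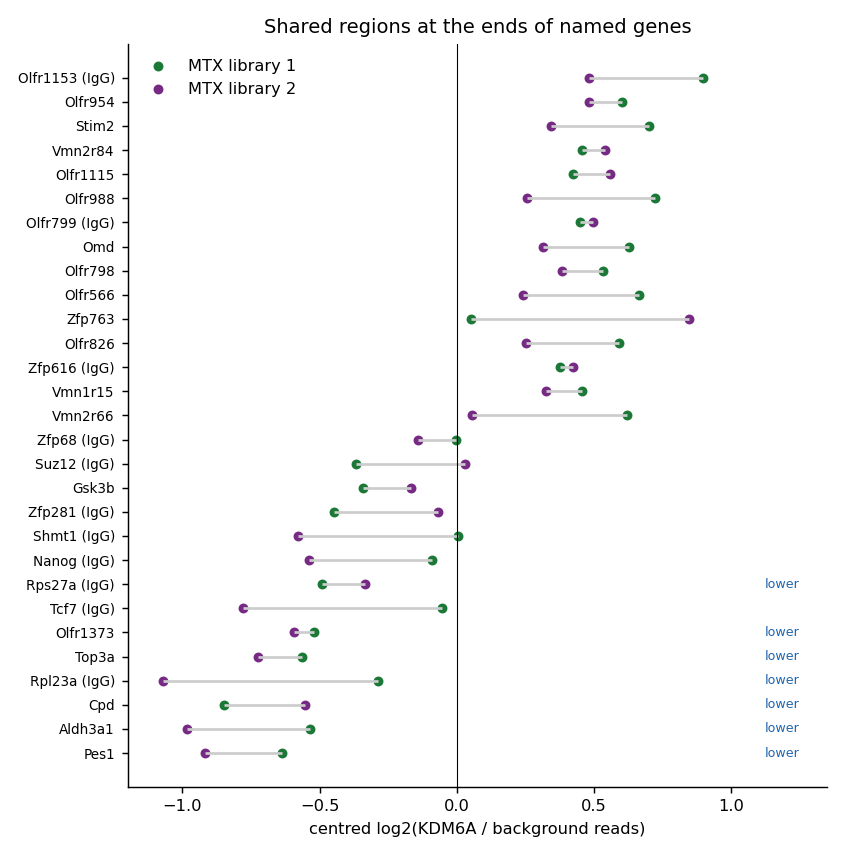
Centred log2(KDM6A / background reads) (horizontal) at shared gene-end regions of the named genes, library 1 in green and library 2 in purple; IgG marks regions that meet an IgG interval, and blue text the genes called lower by edgeR. The receptor genes other than Olfr1373 were picked for high values in both libraries, so their place above 0 follows from that choice. Among all receptor genes with a shared gene-end interval, 18 of 49 olfactory and 4 of 13 vomeronasal ones were above 0 in both. The 7 genes called lower lie below 0 in both libraries.

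The KDM6 genes themselves had no shared interval. Kdm6a, at chrX:18160862-18279936, and Uty, at chrY:1085187-1245773, had none in or at the gene in either library, where the lists placed 2 and 8 intervals on the whole X chromosome and 5 and 4 on the Y chromosome. Kdm6b, at chr11:69398508-69420367, had 2 gene-end intervals in library 1 and 0 in library 2. The first of these, at chr11:69395001-69398800, had 161 KDM6A against 116 background reads and a centred ratio of 0.06, close to the list median.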

How the data were processed

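The deposited lists hold, per interval and without a header, counts of KDM6A and background reads, a p-value, a fold ratio and an adjusted p-value. Per the submitters' processing notes, Bowtie2 was used with mm10. The interval caller was not given in the sources used here. Intervals were called per library, since each deposited list has its own positions. The deposited fold is the ratio of the 2 counts times a depth constant, 1.07 and 1.12, computed here from the deposited values.

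Coordinates are mm10, counted from 1. Within each shared region, the reads of a library were summed over that library's own intervals. The counts of the 2 libraries therefore need not cover the same bases. The sums were tested with edgeR 4.0.16 (quasi-likelihood, library block, offsets from list medians, Benjamini-Hochberg over 5899 regions), after a check on simulated data. DESeq2 1.42.0 and limma 3.58.1 were alternatives. The exact (Clopper-Pearson) 95% intervals of shares describe counting error alone. Genes are from RefSeq GRCm38.p6 (21887 protein-coding), without exons. The named genes are the 10 highest gene-end genes and the 10 highest genes around a midpoint by the lower of both values, the 5 lowest, up to 3 per list, genes at the 5 widest regions, and the KDM6 genes; Wipi1, Uqcr10, the Suz12 promoter, regions of extreme value and genes with most regions were chosen after their values were seen. Ranked genes needed 50 KDM6A reads per library, no IgG overlap and no prediction symbol. The members and lists were chosen with earlier results of these data known. One gene that the rule takes in is not reported here.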

Additional observations from a re-analysis of the deposited data

How the results depend on the processing

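Against 30 higher and 541 lower regions, edgeR gave 2798 and 14 with the depth constants, 16 and 308 at 50% overlap, 34 and 604 with at least 50 reads, 10 and 72 without IgG overlap, 26 and 227 without chromosome 11, and 10 and 15 with a deposited adjusted p under 0.05. DESeq2 gave 0 and 166 among the 867 regions to which it gave an adjusted p. Among the 30 higher regions it gave one only to that nearest to Dsel. The limma counts were 46 and 534, of which 29 and 515 were also called by edgeR. Without the replicate block the counts were 0 and 0 (10 and 85 unadjusted). The block rests on the design, in which background reads were counted over each list's own intervals. Leaving out a library leaves no residual degree of freedom, so no such test was run.

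The 5899 shared regions became 2773 (50% overlap), 3010 (no IgG overlap), 3913 (no chromosome 11), 3626 (deposited adjusted p) and 5320 (50 reads). In that order the members' share was 11.5, 12.8, 21.2, 20.2 and 24.6% of list 1 and 9.57, 10.8, 18.1, 16.0 and 20.6% of list 2. Pearson r, 0.37, became 0.44 at 50% overlap, 0.32 without IgG and 0.21 with the deposited adjusted p. The median centred ratio over both libraries, -0.13, was -0.059 without IgG, -0.060 without chromosome 11, 0.019 with the deposited adjusted p and 0.42 with the depth constants, so the latter 2 reversed it; single libraries gave -0.16 to -0.09. The median width, 3900 bp, was 4100 bp with 50 reads, 3700 bp without IgG and 3800 to 4000 bp in single libraries.

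The 469 gene-end genes became 237 (50% overlap), 205 (no IgG), 285 (no chromosome 11), 186 (deposited adjusted p), 1910 (whole genes), and 2029 to 2944 in single libraries. With the depth constants 33 of the 39 named genes were above 0, and Rps27a turned to 0.13. Median KDM6A reads were 112.5 and 112 in regions called higher and 128 and 142 in uncalled ones.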
